A study of Homo sapiens with 24 samples.

Results

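U-2 OS is a human osteosarcoma cell line, and its total RNA was compared here with its cytoplasmic RNA. The comparison held 7 of the 24 libraries of the series: total replicates 1 to 4, made from RNA of whole cells, and cytoplasmic replicates 14 to 16, made, by the study's methods, from RNA released in a detergent lysis buffer. Neither group carried a treatment or an edited allele, and all libraries hold RNA selected by its poly(A) tail. Cytoplasmic replicate 13 was left out because its read totals match no library in the study's run table, and it served only as a separate check. Nothing in the labels says which culture a library came from, and all p-values measure no more than the spread between these libraries. The study checked its fractions by electrophoresis. How much nuclear RNA the cytoplasmic libraries hold was not tested here. The question was which genes, and which functions, take a different share of the poly(A) RNA in the cytoplasmic fraction than in whole cells.

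A messenger RNA molecule spends part of its life in the nucleus before export. Whole-cell RNA samples both compartments, while a clean cytoplasmic preparation samples what has been exported. Some RNAs, among them the long non-coding RNAs MALAT1 and NEAT1, are known as residents of nuclear bodies. Mitochondria make their own polyadenylated transcripts outside the nucleus. Levels are given as CPM, a gene's count as a share of its library's total, scaled between libraries by the trimmed mean of M values, and each difference as a log2 ratio of total to cytoplasmic RNA, positive where a gene took the larger share of total RNA. Since counts are shares, a ratio of 0 means the same share as the typical gene and says nothing of RNA per cell; in bulk RNA, fewer cells with a transcript and fewer copies per cell cannot be told apart.

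The last 30 coding bases of 12 genes are printed because base composition was the property in which the genes of both directions differed most visibly. They are the 3 protein-coding genes of lowest (total) or highest (cytoplasmic) GC content among the 12 of largest ratio and the 8 of highest count in each direction, apart from PLEC, taken from the reference transcript, 5′ to 3′ and ending in the stop codon, with G and C in capitals. The first 6 belong to genes higher in total RNA, the last 6 to genes of the opposite direction.
COA6: GaGCCttCaGaaaCaaCtGCaaaatCCtaG
CLEC2D: GGGaGCaGGaGaGtGtGCCtatttGaatGa
LSM6: taCatCaGtaCaCaGaaGaGaCGGatGtGa
EDIL3: GaGCtGCtGGGCtGCaCaGaGGaGGaatGa
KTN1: GaGaaaGaGCaCtaCCaGGtGttaGaGtGa
TOP2A: GaaGaGtCaGatGaaGatGatCtGttttaa
METRN: CtCCaCCCCtGCGaGGtGGCGCtGCaCtGa
MIF: GtGGGCtGGaaCaaCtCCaCCttCGCCtaa
DGKZ: CaGCGGGaGGaCCaGGaGaCGGCtGtGtaG
FLNA: GGCaGCCCCtaCCGCGttGtGGtGCCCtGa
EEF2: GCCCtGGaCaaCttCCtGGaCaaattGtaG
TUBB4B: GaGGaGGaGGCtGaGGaGGaGGtGGCCtaG

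In GRCh37 coordinates, the stretches of the first group lie in the final coding exons at chr1:234519535-234519564 (COA6, plus strand), chr12:9847368-9847397 (CLEC2D, plus strand), chr4:147110779-147110808 (LSM6, plus strand), chr5:83239238-83239267 (EDIL3, minus strand), chr14:56146379-56150821 (KTN1, plus strand) and chr17:38545771-38545800 (TOP2A, minus strand); the KTN1 stretch spans 2 exons and the intron between them. Those of the second group lie at chr16:767358-767387 (METRN, plus strand), chr22:24237264-24237293 (MIF, plus strand), chr11:46401468-46401497 (DGKZ, plus strand), chrX:153577217-153577246 (FLNA, minus strand), chr19:3976552-3976581 (EEF2, minus strand) and chr9:140137979-140138008 (TUBB4B, plus strand). From 10 (TOP2A) to 18 (EDIL3) of the 30 bases were G or C in the first group and from 15 (EEF2) to 21 (METRN and FLNA) in the second, so single genes overlapped. Over the whole transcript the first group had 37.1 to 40.2% GC and the second 59.3 to 66.7%. Across all called protein-coding genes, the median GC content of the last 30 coding bases was 40% for those higher in total RNA, 56.7% for those higher in cytoplasmic RNA and 46.7% for those not called.

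Gene counts ranged from 21805430 to 27623859 in the total libraries and from 25915013 to 27551776 in cytoplasmic replicates 14 to 16, so depth differed little between the fractions. All total libraries and cytoplasmic replicate 14 matched flow cell A of the run table, and cytoplasmic replicates 15 and 16 matched flow cell B, replicate 14 in 3 and the others in all 4 of the read totals compared; fraction and flow cell cannot be fully told apart. Of 19 osteoblast and mesenchymal markers 14 were tested, with summed levels of 5368 to 5575 CPM in total and 5499 to 5625 CPM in cytoplasmic libraries; the late bone markers BGLAP, IBSP and SP7, and TWIST1 and DLX5, were too low to test. Of 17 epithelial markers 11 were tested (851 to 913 and 898 to 953 CPM), and of 12 glial markers 8 (452 to 479 and 436 to 465 CPM).

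Of 18049 genes tested, 1509 (8.36%) differed at an adjusted p under 0.001 (edgeR quasi-likelihood test with Benjamini-Hochberg adjustment): 858 (4.75%) lay toward total RNA and 651 (3.61%) toward cytoplasmic RNA. The differences were small, with a median log2 ratio of 0.33 (1.25-fold) among genes higher in total RNA and of 0.38 in size (1.302-fold) among those higher in cytoplasmic RNA. A size of at least 1 was reached by 19 and 9 genes, and of at least 0.5 by 100 and 130. The libraries of both fractions did not overlap for 858 and 649 of the called genes, against 3236 and 2760 of all genes tested. The calls leaned on the number of libraries: 178 of the 858 and 201 of the 651 were made in each of the 7 fits that left out 1 library, with the fewest kept without cytoplasmic replicate 15 (201 and 256) or 14 (280 and 269). Without total replicate 3 the counts rose to 1358 and 1254, and with library size alone as the scaling they were 935 and 441. With flow cell as a term 9 and 33 genes were called, and in the libraries of flow cell A alone, 4 total against cytoplasmic replicate 14, 25 and 101.

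**Figure D1:**
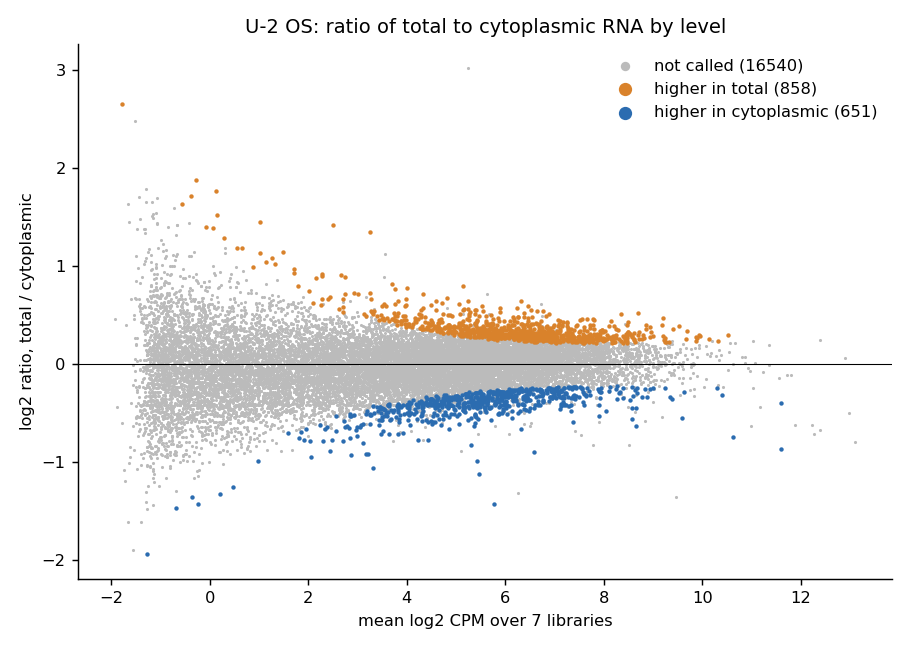
Log2 ratio of total to cytoplasmic RNA (y axis) against mean log2 CPM over the 7 libraries (x axis) for the 18049 genes tested; orange points are the 858 genes higher in total RNA, blue points the 651 higher in cytoplasmic RNA, grey points genes not called. Most called genes lie within 1 log2 unit of 0, and the few beyond it are mostly at low levels.

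Protein-coding genes made up most calls, with 716 higher in total and 575 higher in cytoplasmic RNA of 13473 tested. Among 968 long non-coding RNA genes 7 and 8 were called (0.723 and 0.826%), beside 4.75 and 3.61% over all genes tested. Their median level was 0.38 log2 CPM against 4.77 for protein-coding genes, and low counts make a ratio harder to call. Of 2569 pseudogenes 122 were called toward total and 50 toward cytoplasmic RNA, and their counts are uncertain because a processed pseudogene shares reads with its parent gene; of the 28 called genes with a size of at least 1, 15 were pseudogenes. Another 1000 genes tested are not in the annotation used here, and 12 and 17 of them were called.

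Transcripts higher in total RNA were AT-rich and those higher in cytoplasmic RNA GC-rich. Median transcript GC content was 38.9% for protein-coding genes higher in total RNA (quartiles 36.9 and 42.3%), 60.3% for those higher in cytoplasmic RNA (56.9 and 63.3%) and 49.1% for those not called (42.6 and 56.9%), so the quartile ranges of the called groups did not overlap. At the third codon position, where most base changes leave the protein as it is, the medians were 40, 74.9 and 59.6%. Below 38% GC, 279 of 1023 genes (27.3%) were higher in total RNA and 0 lower. Above 62% GC, 9 of 1345 were higher in total RNA and 205 (15.2%) lower. The median log2 ratio fell through all 8 GC classes, from 0.23 in the lowest to -0.27 in the highest.

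Length differed less than base composition. The median coding length was 1216 bases for genes higher in total RNA, 1617 for those higher in cytoplasmic RNA and 1478 for those not called, and the medians of the 3′ UTR were 1970, 422 and 1170 bases. Genes with a coding sequence over 5000 bases were higher in cytoplasmic RNA in 55 of 666 cases (8.26%) and in total RNA in 12 (1.80%). Genes with a 3′ UTR over 4000 bases showed the opposite lean, 11 (0.686%) and 132 (8.23%) of 1603. Within genes above 50% GC, calls toward cytoplasmic RNA were made for 139 of 1842 genes with coding sequences under 1000 bases and 224 of 1934 above 2000 bases (7.55 and 11.6%). Within genes below 42% GC, calls toward total RNA were made for 184 of 922 and 139 of 1056 (19.96 and 13.2%). Called genes also had more counts, with median levels of 6.42 and 5.53 against 4.57 log2 CPM, and a higher count makes a small ratio easier to call.

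**Figure D2:**
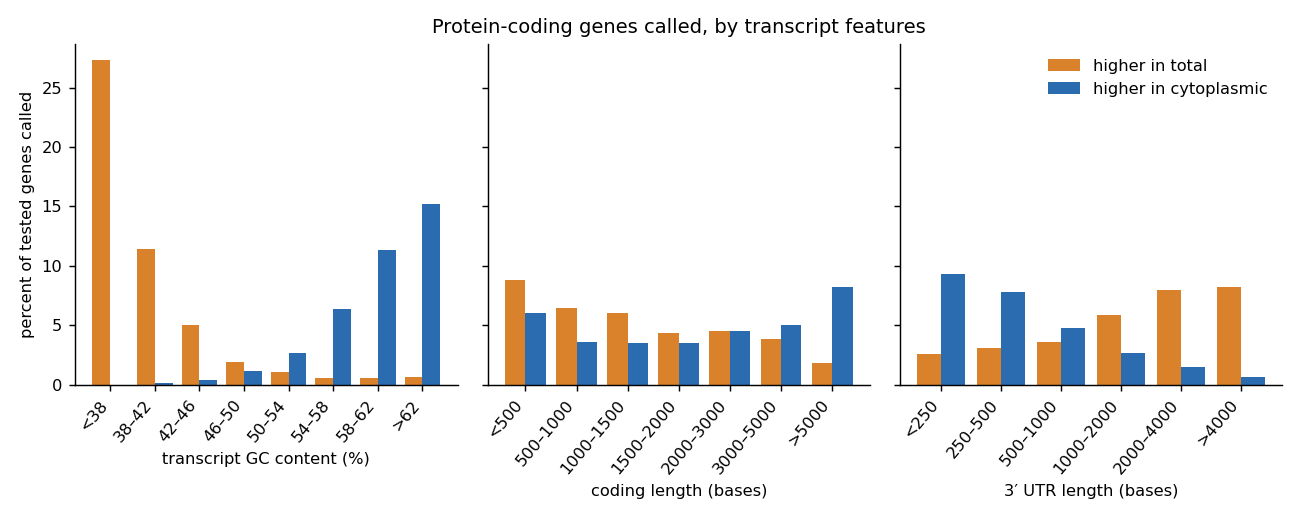
Percent of tested protein-coding genes called higher in total RNA (orange bars) and higher in cytoplasmic RNA (blue bars) by transcript GC content (left), coding length (middle) and 3′ UTR length (right). The GC panel runs from 27.3% orange and 0 blue in the lowest class to 0.669% orange and 15.2% blue in the highest, a wider span than in either length panel.

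The nuclear chromosomes mostly followed their GC content. On chromosome 19, whose tested genes had a median GC of 59.2%, 11 genes of 1013 were called toward total and 91 toward cytoplasmic RNA. Chromosome 22 (8 and 40 of 439), chromosome 16 (8 and 44 of 641) and chromosome 17 (16 and 47 of 864) leaned the same way, with median GC of 54.4 to 55.96%. Chromosome 4, with a median GC of 43.5%, had 53 and 5 of 695, and chromosome 18, at 43.6%, had 16 and 0 of 209. The mitochondrial genome did not follow this order. At a median GC of 43.7% it had 0 and 2 of 15 genes called and a median log2 ratio of -0.62.

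A GC balance was taken for each library as the median log2 level of 2136 genes above 60% GC minus that of 2069 genes below 40% GC, each gene centred on its mean over the 7 libraries. It was -0.21, -0.21, -0.02 and -0.31 in total replicates 1 to 4 and 0.31, 0.37 and 0.08 in cytoplasmic replicates 14 to 16. Every total library lay below every cytoplasmic one (difference -0.44, two-sided exact permutation p = 0.0286, the smallest that 4 against 3 libraries allow). Total replicate 3 and cytoplasmic replicate 16 came closest to each other. Cytoplasmic replicate 14, on the same flow cell as the total libraries, had 0.31, between replicates 15 and 16 of flow cell B. When a smooth curve of GC content was fitted as an offset in each library, 344 genes were called toward total and 213 toward cytoplasmic RNA, 216 and 168 of them from the lists above. By construction this offset takes out any difference between the fractions that follows GC content, whatever its source. A call lost with the offset, here or below, therefore does not say where the difference arose. The part that the making of the libraries had in the GC lean was not tested.

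The share of reads not wholly within the exons of a gene, which include those of unspliced RNA, was 17.05, 17.4, 17.4 and 16.9% of uniquely aligned reads in total replicates 1 to 4 and 16.9, 17.8 and 17.2% in cytoplasmic replicates 14 to 16. The fractions overlapped (means 17.2 ± 0.260 and 17.3 ± 0.491%, SD, n = 4 and 3, exact permutation p = 0.800). Long non-coding RNA genes took 0.467 to 0.520% of counts in total and 0.511 to 0.554% in cytoplasmic libraries (exact permutation p = 0.0857). The 100 most abundant genes took 15.3 to 16.4% of counts in total libraries and 17.8 to 17.9% in cytoplasmic libraries (exact permutation p = 0.0286). After thinning to equal depth, 24130 to 24366 genes had a count in total and 24485 to 24608 in cytoplasmic libraries (exact permutation p = 0.0286). All 8 values per library gave 4 that reached this smallest p, which was 0.0571 after Benjamini-Hochberg adjustment over the 8.

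**Figure D3:**
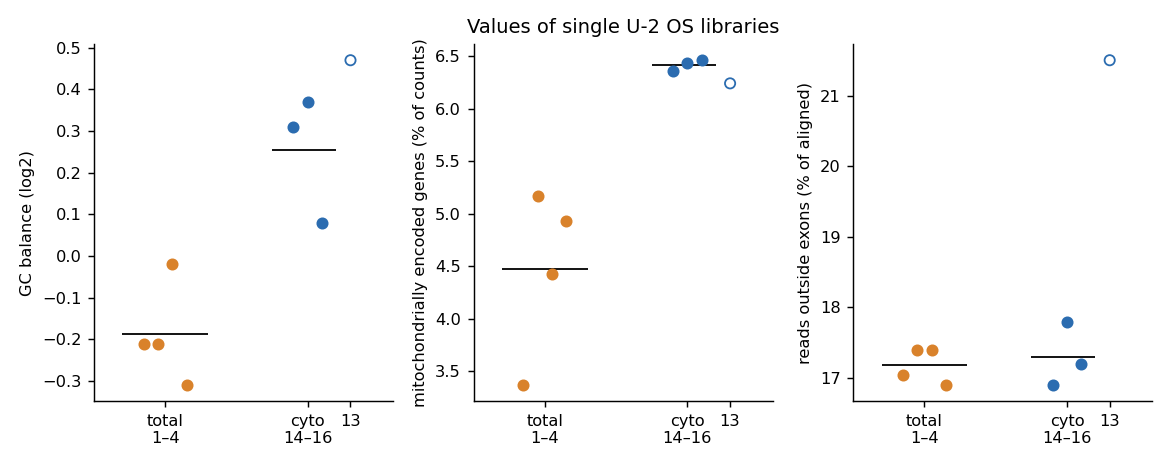
Value of each library for the GC balance (log2, left), the percent of counts from mitochondrially encoded genes (middle) and the percent of uniquely aligned reads outside exons (right); filled circles are total replicates 1 to 4 (orange) and cytoplasmic replicates 14 to 16 (blue), the open blue circle is cytoplasmic replicate 13, and bars mark the group means without it. The fractions separate in the left and middle panels and overlap in the right one, where replicate 13 stands at 21.5%.

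The nuclear RNA MALAT1 was higher in cytoplasmic than in total RNA. MALAT1 had 24.5, 33.4, 34.3 and 31.9 CPM in total replicates 1 to 4 and 51.1, 60.7 and 52.8 CPM in cytoplasmic replicates 14 to 16, with no overlap (log2 ratio -0.82, SE 0.0974, adjusted p = 3.64e-05; n = 4 and 3). NEAT1, which builds the paraspeckle, had 389.7, 514, 587 and 512 CPM in total replicates 1 to 4 and 702, 866 and 621 CPM in cytoplasmic replicates 14 to 16. Its cytoplasmic libraries were all above the total ones, but the difference was not called (log2 ratio -0.54, SE 0.181, adjusted p = 0.0843). Both stood still higher in cytoplasmic replicate 13, at 78.4 CPM for MALAT1 and 1143 CPM for NEAT1. Of 12 nuclear long non-coding RNAs tested, MALAT1 was the only one called toward cytoplasmic RNA and OIP5-AS1 the only one toward total RNA (log2 ratio 0.28, SE 0.0562, adjusted p = 0.000293, not called without cytoplasmic replicate 15 at an adjusted p of 0.0137), and the list's median log2 ratio was 0.03 against 0.00 over all genes tested. The share called was 16.7% of these 12 and 9.52% of 21 host genes of small nucleolar RNAs, beside 8.36% over all genes tested. The host genes had a median log2 ratio of -0.15, with 5 ratios above 0. Among them, SNHG6 was called toward total RNA (60.4 ± 3.97 CPM in total and 42.8 ± 1.28 CPM in cytoplasmic RNA, log2 ratio 0.50, SE 0.0619, adjusted p = 3.49e-07). GAS5 was called toward cytoplasmic RNA (74.3 ± 4.77 CPM in total and 88.8 ± 2.46 CPM in cytoplasmic RNA, log2 ratio -0.26, SE 0.0563, adjusted p = 0.000672, not called without cytoplasmic replicate 14 at an adjusted p of 0.00784). The counting did not use strand, so reads of OIP5-AS1 and other antisense genes cannot be told from those of the genes they overlap.

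Calls among genes for splicing and export were mostly toward total RNA, and fewer were made with the GC offset. Their counts are to be read against the 4.75 and 3.61% called toward total and cytoplasmic RNA over all genes. Of 20 hnRNP genes, whose proteins coat nascent RNA, 4 were called toward total and 0 toward cytoplasmic RNA, 19 of the 20 ratios were above 0 and the median was 0.13; none of the 4 stayed called in all 7 fits that left out 1 library. Among 58 core spliceosome genes 6 and 1 were called, with a median of -0.03 and 27 ratios above 0. LSM6, a subunit of the ring on U6 RNA, led them with 17.7, 21.5, 19.95 and 18.5 CPM in total replicates 1 to 4 and 12.7, 11.9 and 11.95 CPM in cytoplasmic replicates 14 to 16 (log2 ratio 0.67, SE 0.08803, adjusted p = 6.72e-07). Of 28 mRNA export factors 3 and 0 were called, among them ENY2, a subunit of the export complex TREX-2 (66.3 ± 3.68 CPM in total and 47.8 ± 1.94 CPM in cytoplasmic RNA, log2 ratio 0.47, SE 0.0601, adjusted p = 5.03e-07). SEM1, a small protein of the same complex and of the proteasome, was higher in total RNA as well (123 ± 5.52 CPM in total and 96.7 ± 0.496 CPM in cytoplasmic RNA, log2 ratio 0.34, SE 0.0524, adjusted p = 7.21e-06). SRRM2, a scaffold of nuclear speckles, went the other way with 681, 682, 652 and 598 CPM in total replicates 1 to 4 and 945, 1069.8 and 860.3 CPM in cytoplasmic replicates 14 to 16 (log2 ratio -0.55, SE 0.0618, adjusted p = 5.24e-07). It was the highest-count gene among 22 SR protein and CLK kinase genes, of which 3 and 1 were called, and it reached 1429 CPM in cytoplasmic replicate 13. Nucleoporins (1 and 2 of 29) and the genes of the nuclear exosome and 3′ end processing (5 and 3 of 34) were called in both directions, and none of these stayed called in all 7 fits that left out 1 library. With the GC offset 1 and 0 hnRNP genes, 2 and 1 spliceosome genes, 1 and 0 export factors and 2 and 2 SR protein and CLK kinase genes were called.

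Mitochondrially encoded genes took a larger share of cytoplasmic RNA: 6.36, 6.43 and 6.46% of counts in cytoplasmic replicates 14 to 16 against 3.37, 5.17, 4.43 and 4.93% in total replicates 1 to 4, with no overlap (exact permutation p = 0.0286). Total replicate 1 was the lowest. MT-ND5, a complex I subunit, carried the clearest single difference, with 2187, 2551, 2275 and 2584 CPM in total replicates 1 to 4 and 4443, 4361 and 4218 CPM in cytoplasmic replicates 14 to 16 (log2 ratio -0.86, SE 0.0579, adjusted p = 1.91e-13). MT-RNR1, the small ribosomal RNA of mitochondria, followed with 289, 351, 352 and 342 CPM in total replicates 1 to 4 and 493, 550.2 and 505 CPM in cytoplasmic replicates 14 to 16 (log2 ratio -0.63, SE 0.0594, adjusted p = 3.52e-08). Both were called in each of the 7 fits that left out 1 library.

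MT-CO1, the catalytic subunit of cytochrome c oxidase and the mitochondrial messenger with most counts, had 4876, 8524, 7463 and 7414 CPM in total replicates 1 to 4 and 11869, 12324 and 12398 CPM in cytoplasmic replicates 14 to 16. Its fractions did not overlap, yet the spread among total libraries kept it from the threshold (log2 ratio -0.79, SE 0.195, adjusted p = 0.0355). MT-CO3 (log2 ratio -0.71, SE 0.1404, adjusted p = 0.0118), MT-RNR2 (log2 ratio -0.67, SE 0.118, adjusted p = 0.00426) and MT-ND4L (log2 ratio -1.35, SE 0.189, adjusted p = 0.00487) were in the same position. MT-ATP6 and MT-ATP8, which overlap on one transcript, had ratios above 0 without a call (log2 ratio 0.25, SE 0.2096, adjusted p = 0.456 for MT-ATP6 and log2 ratio 0.24, SE 0.181, adjusted p = 0.389 for MT-ATP8). Across 13 mitochondrial messengers the median log2 ratio was -0.62, with 1 called and 5 ratios above 0.

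With pseudogenes and genes outside the annotation set aside, some of which had larger ratios, the called protein-coding and long non-coding genes of largest ratio toward total RNA at a mean level of 3 log2 CPM or more belonged to varied functions, and SPCS2 led them. SPCS2, a subunit of the signal peptidase complex that trims secreted proteins in the endoplasmic reticulum (ER), had 18.5, 22.2, 18.8 and 20.8 CPM in total replicates 1 to 4 and 12.1, 11.5 and 11.4 CPM in cytoplasmic replicates 14 to 16 (log2 ratio 0.78, SE 0.08801, adjusted p = 6.66e-08). KRT10, a keratin of intermediate filaments, had 33.5, 36.6, 33.1 and 34.6 CPM in total replicates 1 to 4 and 24.7, 21.2 and 18.3 CPM in cytoplasmic replicates 14 to 16 (log2 ratio 0.68, SE 0.0795, adjusted p = 1.73e-07). DUT, the enzyme that keeps uracil out of DNA, had 90.98, 104, 93.2 and 96.9 CPM in total replicates 1 to 4 and 61.4, 58.2 and 64.4 CPM in cytoplasmic replicates 14 to 16 (log2 ratio 0.65, SE 0.0577, adjusted p = 2.83e-10). In each of these 3 genes the lowest total library lay above the highest cytoplasmic one by more than the range of either group.

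GADD45A, a stress-induced growth arrest protein, had 38.8, 42.2, 37.01 and 42.4 CPM in total replicates 1 to 4 and 25.9, 26.4 and 26.2 CPM in cytoplasmic replicates 14 to 16 (log2 ratio 0.62, SE 0.0681, adjusted p = 4.14e-08). ID4, an inhibitor of basic helix-loop-helix factors that responds to bone morphogenetic protein signals, had 11.5, 12.3, 10.5 and 12.9 CPM in total replicates 1 to 4 and 8.12, 6.41 and 7.64 CPM in cytoplasmic replicates 14 to 16 (log2 ratio 0.67, SE 0.107, adjusted p = 1.32e-05), though its ratio in the deposited RPKM was -0.07. TBCA, a tubulin folding cofactor, had 28.4, 28.002, 21.7 and 30.03 CPM in total replicates 1 to 4 and 18.8, 16.4 and 17.98 CPM in cytoplasmic replicates 14 to 16, its total replicate 3 being nearest to the cytoplasmic libraries (log2 ratio 0.61, SE 0.0908, adjusted p = 1.59e-05). COA6, an assembly factor of cytochrome c oxidase, had 18.7 ± 1.51 CPM in total and 12.3 ± 1.14 CPM in cytoplasmic RNA (log2 ratio 0.60, SE 0.0903, adjusted p = 5.66e-06). PITX1-AS1, a non-coding RNA antisense to PITX1, had 13.3 ± 1.41 CPM in total and 8.79 ± 0.0214 CPM in cytoplasmic RNA (log2 ratio 0.60, SE 0.099997, adjusted p = 2.33e-05). CLEC2D, a lectin-like surface ligand, and HOXC9, a homeobox factor, completed this group at log2 ratios of 0.60 each; CLEC2D lost its call without cytoplasmic replicate 16 (adjusted p = 0.00450) and HOXC9 without cytoplasmic replicate 15 (adjusted p = 0.00113).

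**Figure D4:**
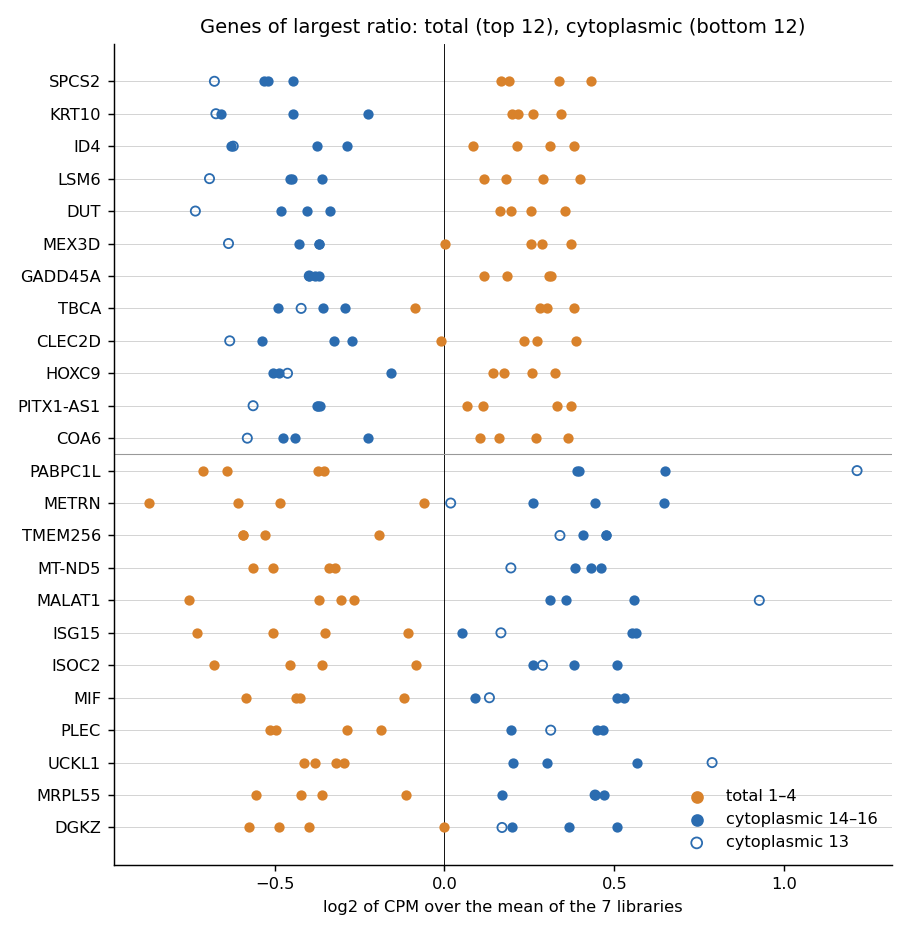
Log2 of each library's CPM over the gene's mean of the 7 libraries (x axis) for the 12 called protein-coding or long non-coding genes of largest ratio in each direction at 3 log2 CPM or more, chosen without overlap between the fractions (y axis); orange circles are total replicates 1 to 4, blue circles cytoplasmic replicates 14 to 16 and open blue circles cytoplasmic replicate 13. Among the lower 12 the open circle lies beyond the filled blue ones for PABPC1L, MALAT1 and UCKL1.

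The 8 genes of highest count among those higher in total RNA had smaller ratios. HSP90AA1, the inducible cytosolic HSP90, had 1677, 1633, 1430.4 and 1718 CPM in total replicates 1 to 4 and 1339, 1238 and 1371 CPM in cytoplasmic replicates 14 to 16 (log2 ratio 0.30, SE 0.0583, adjusted p = 0.0002304). TOP2A, the topoisomerase that untangles mitotic DNA, had 1383, 1356, 1330.0 and 1422 CPM in total replicates 1 to 4 and 1141, 1119 and 1224 CPM in cytoplasmic replicates 14 to 16 (log2 ratio 0.24, SE 0.0526, adjusted p = 0.000639). HSP90B1, the HSP90 of the ER, had 1078 ± 66.9 CPM in total and 873 ± 53.7 CPM in cytoplasmic RNA (log2 ratio 0.30, SE 0.0558, adjusted p = 8.34e-05). The choice of these 8 genes required fractions without overlap.

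CANX, a lectin chaperone of the ER membrane, had 1085 ± 82.8 CPM in total and 889 ± 62.7 CPM in cytoplasmic RNA (log2 ratio 0.29, SE 0.0586, adjusted p = 0.000373). KTN1, an ER membrane protein that binds kinesin, had 1219 ± 55.6 CPM in total and 1014 ± 64.01 CPM in cytoplasmic RNA (log2 ratio 0.26, SE 0.0545, adjusted p = 0.000335). HNRNPU, a scaffold attachment protein of the nucleus, YWHAZ, a 14-3-3 adaptor, and EDIL3, a secreted integrin ligand, had log2 ratios of 0.27, 0.24 and 0.28. Each of these 8 calls was lost in 2 to 5 of the 7 fits that left out 1 library, with largest adjusted p values from 0.00627 (HSP90B1) to 0.0307 (YWHAZ) without cytoplasmic replicate 15, and of 0.0190 for EDIL3 without cytoplasmic replicate 14. With the GC offset none of the 8 was called.

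Heat shock and ubiquitin-conjugating genes were called mostly toward total RNA, and other protein turnover genes in both directions. Over all genes tested, 4.75% were called toward total and 3.61% toward cytoplasmic RNA. Of 48 chaperonin and cytosolic heat shock genes 8 were called toward total and 1 toward cytoplasmic RNA (median log2 ratio 0.10, 34 ratios above 0). DNAJB4, a co-chaperone of HSP70, had 78.4 ± 5.18 CPM in total and 57.9 ± 4.15 CPM in cytoplasmic RNA (log2 ratio 0.44, SE 0.06097, adjusted p = 1.84e-06), with a ratio of -0.27 in the deposited RPKM. PFDN5, a prefoldin subunit, was the one gene of this list in the other direction (log2 ratio -0.34, SE 0.0561, adjusted p = 2.05e-05). HSPE1, the co-chaperonin of mitochondria, is counted with the mitochondrial import genes below and not among these 48. It had 101 ± 8.82 CPM in total and 72.6 ± 5.52 CPM in cytoplasmic RNA (log2 ratio 0.47, SE 0.0645, adjusted p = 5.29e-06). Of 34 ubiquitin-conjugating enzymes 7 and 0 were called (median 0.15), with UBE2H (log2 ratio 0.39, SE 0.0632, adjusted p = 1.72e-05) and UBE2K (log2 ratio 0.38, SE 0.0535, adjusted p = 2.28e-06) called in each of the 7 fits that left out 1 library. Among 37 proteasome genes 1 and 2 were called: PSMC6, an ATPase of the cap, toward total RNA (log2 ratio 0.35, SE 0.0599, adjusted p = 3.29e-05, but -0.55 in the deposited RPKM), and the core subunits PSMB6 (log2 ratio -0.43, SE 0.0634, adjusted p = 4.19e-06) and PSMB1 (log2 ratio -0.32, SE 0.0528, adjusted p = 2.13e-05) toward cytoplasmic RNA. Cullins and F-box proteins had 6 and 5 of 91 called and USP deubiquitinases 3 and 2 of 45, each with a median of 0.02. With the GC offset the counts were 5 and 1 for the heat shock genes, 3 and 0 for the conjugating enzymes and 0 and 3 for the proteasome.

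The secretory pathway held calls in both directions, with more toward total RNA. Against its counts stand the 4.75 and 3.61% called over all genes tested. For the ER translocon, signal peptidase and oligosaccharyltransferase, 10 and 4 of 48 genes were called (median 0.07), SPCS2 leading one side and SSR4, a translocon-associated protein, standing on the other (55.2 ± 2.98 CPM in total and 70.7 ± 4.596 CPM in cytoplasmic RNA, log2 ratio -0.36, SE 0.0598, adjusted p = 2.74e-05). ER chaperones and folding enzymes had 5 and 1 of 40 (median 0.11). DNAJC10, an ER disulfide reductase, was higher in total RNA (log2 ratio 0.33, SE 0.0528, adjusted p = 1.22e-05), and SERPINH1, the collagen chaperone, in cytoplasmic RNA (399 ± 18.5 CPM in total and 503 ± 11.97 CPM in cytoplasmic RNA, log2 ratio -0.33, SE 0.0505, adjusted p = 6.92e-06). TMED2 (323 ± 22.03 CPM in total and 238 ± 12.5 CPM in cytoplasmic RNA, log2 ratio 0.44, SE 0.0546, adjusted p = 3.58e-07) and TMED7 (log2 ratio 0.40, SE 0.0562, adjusted p = 2.43e-06), cargo receptors of vesicles between ER and Golgi, were among the 4 and 3 of 43 coat and transport genes called. RAB GTPases had 8 and 1 of 56 (median 0.06), with RAB13 the one called in every fit that left out 1 library (log2 ratio 0.44, SE 0.0616, adjusted p = 3.92e-06). In these 4 lists, 4, 1, 3 and 1 of the calls toward total RNA were made in all 7 such fits. Their calls with the GC offset were 3 and 1, 1 and 0, 1 and 1, and 3 and 0.

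Calls were mostly toward total RNA among ribosome biogenesis genes and mostly toward cytoplasmic RNA among ribosomal protein genes. The shares called over all genes were 4.75% toward total and 3.61% toward cytoplasmic RNA. Of 69 ribosome biogenesis genes 9 were called toward total and 2 toward cytoplasmic RNA (median 0.02), among them NPM1, a chaperone of the nucleolus (334 ± 28.4 CPM in total and 254 ± 12.7 CPM in cytoplasmic RNA, log2 ratio 0.39, SE 0.0578, adjusted p = 8.30e-06), and MPHOSPH10, a part of the small-subunit processome (82.4 ± 6.54 CPM in total and 59.1 ± 3.9996 CPM in cytoplasmic RNA, log2 ratio 0.48, SE 0.0624, adjusted p = 8.85e-07). Of 83 cytosolic ribosomal protein genes 3 and 15 were called (median -0.09, 23 ratios above 0), and 10 of the 15 stayed called in all 7 fits that left out 1 library. RPL37 had 146, 128, 153 and 130.2 CPM in total replicates 1 to 4 and 222, 222 and 187 CPM in cytoplasmic replicates 14 to 16 (log2 ratio -0.59, SE 0.0659, adjusted p = 1.98e-06). RPL29 had 205 ± 19.6 CPM in total and 296 ± 21.3 CPM in cytoplasmic RNA (log2 ratio -0.53, SE 0.0636, adjusted p = 3.13e-06). Both belong to the large subunit, and neither gene's fractions overlapped. Ribosomal protein genes have many processed pseudogenes, so the split of their reads is uncertain. RACK1, a ribosome-bound scaffold, had 625, 582, 626 and 574 CPM in total replicates 1 to 4 and 767, 796 and 743 CPM in cytoplasmic replicates 14 to 16 (log2 ratio -0.35, SE 0.0514, adjusted p = 3.67e-06). EEF2, the elongation factor that moves the ribosome along, had 1246 ± 83.6 CPM in total and 1540.2 ± 86.9 CPM in cytoplasmic RNA (log2 ratio -0.31, SE 0.05598, adjusted p = 8.42e-05, not called without cytoplasmic replicate 14 at an adjusted p of 0.00221), while translation factors as a list had 8 and 3 of 64 called (median 0.05). With the GC offset 4 and 13 ribosomal protein genes and 5 and 0 biogenesis genes were called.

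Nuclear genes for the respiratory chain and the mitochondrial ribosome had more calls toward cytoplasmic than toward total RNA. Over all genes tested 3.61 and 4.75% were called in these directions. For the mitochondrial ribosome the share called in either direction, 8%, was close to the 8.36% over all genes. Complexes II to V had 1 and 8 of 44 called (median -0.09). COX7B, a subunit of cytochrome c oxidase, had 65.04, 57.4, 75.3 and 62.7 CPM in total replicates 1 to 4 and 102, 104 and 103 CPM in cytoplasmic replicates 14 to 16 (log2 ratio -0.66, SE 0.0642, adjusted p = 4.14e-08). COX5B, of the same enzyme, had 44.4 ± 4.82 CPM in total and 65.98 ± 6.91 CPM in cytoplasmic RNA (log2 ratio -0.57, SE 0.0789, adjusted p = 2.78e-05), and ATP5PD, of the ATP synthase stalk, was the gene on the other side (log2 ratio 0.37, SE 0.0588, adjusted p = 1.22e-05). Complex I had 1 and 5 of 36 (median -0.03), with NDUFC2 toward total (log2 ratio 0.37, SE 0.05899, adjusted p = 1.60e-05) and NDUFS8 toward cytoplasmic RNA (log2 ratio -0.51, SE 0.0743, adjusted p = 4.88e-06). Mitochondrial ribosomal proteins had 1 and 5 of 75 (median -0.03). MRPL55 had 7.81, 8.94, 10.6 and 8.56 CPM in total replicates 1 to 4 and 15.9, 15.6 and 12.9 CPM in cytoplasmic replicates 14 to 16 (log2 ratio -0.71, SE 0.103, adjusted p = 3.54e-06), and MRPS12 had 17.6 ± 1.07 CPM in total and 26.02 ± 2.596 CPM in cytoplasmic RNA (log2 ratio -0.57, SE 0.0802, adjusted p = 2.43e-06). Mitochondrial import and inner membrane genes had 2 and 2 of 40 called (median 0.06, 23 ratios above 0), and those of the tricarboxylic acid cycle and pyruvate dehydrogenase 1 and 2 of 22 (median -0.02). With the GC offset 1 and 7 genes of complexes II to V, 1 and 2 of complex I and 1 and 3 of the mitochondrial ribosome were called.

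Among called protein-coding and long non-coding genes at the same level, the largest ratio toward cytoplasmic RNA was that of PABPC1L, which is related to the poly(A)-binding proteins of the cytoplasm. PABPC1L had 27.9, 35.3, 35.7 and 29.3 CPM in total replicates 1 to 4 and 60.05, 71.6 and 59.9 CPM in cytoplasmic replicates 14 to 16 (log2 ratio -0.99, SE 0.0852, adjusted p = 3.58e-07), and replicate 13 reached 106 CPM. METRN, a secreted factor of nerve cells, had 5.21, 6.25, 9.12 and 6.804 CPM in total replicates 1 to 4 and 12.95, 14.9 and 11.4 CPM in cytoplasmic replicates 14 to 16 (log2 ratio -0.92, SE 0.141, adjusted p = 0.000104). TMEM256, a small membrane protein, had 6.44, 6.74, 8.51 and 6.44 CPM in total replicates 1 to 4 and 13.5, 13.5 and 12.9 CPM in cytoplasmic replicates 14 to 16 (log2 ratio -0.91, SE 0.105, adjusted p = 7.24e-08). The choice of these genes required fractions without overlap; total replicate 3 came nearest to the cytoplasmic libraries in METRN and TMEM256.

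ISOC2, an isochorismatase-fold protein, had 16.3, 17.4, 21.1 and 13.97 CPM in total replicates 1 to 4 and 31.8, 29.1 and 26.8 CPM in cytoplasmic replicates 14 to 16 (log2 ratio -0.77, SE 0.103, adjusted p = 2.45e-05). UCKL1, a relative of uridine-cytidine kinase, had 11.9, 10.97, 11.7 and 11.2 CPM in total replicates 1 to 4 and 18.01, 21.6 and 16.8 CPM in cytoplasmic replicates 14 to 16 (log2 ratio -0.71, SE 0.0915, adjusted p = 5.03e-07). DGKZ, a diacylglycerol kinase, had 10.1 ± 1.904 CPM in total and 16.5 ± 1.75 CPM in cytoplasmic RNA (log2 ratio -0.71, SE 0.112, adjusted p = 4.77e-05). ISG15, a ubiquitin-like modifier induced by interferon, and MIF, a cytokine, had log2 ratios of -0.80 and -0.77. Total replicate 3 was nearest to the cytoplasmic libraries in METRN, ISOC2, DGKZ, ISG15 and MIF, as it was in the GC balance. Calls were lost for METRN and MIF without total replicate 4 (adjusted p = 0.00218 and 0.00159) and for ISG15 without cytoplasmic replicate 14 (adjusted p = 0.00213).

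Of the 8 genes of highest count among those higher in cytoplasmic RNA, 3 encode long cytoskeletal linkers. PLEC, which ties intermediate filaments to adhesions, had 1335, 1141, 1431 and 1156 CPM in total replicates 1 to 4 and 2249, 2223 and 1867 CPM in cytoplasmic replicates 14 to 16 (log2 ratio -0.74, SE 0.0863, adjusted p = 5.77e-05). FLNA, which cross-links actin, had 3025, 2455, 2934 and 2568 CPM in total replicates 1 to 4 and 3685, 3796 and 3349 CPM in cytoplasmic replicates 14 to 16 (log2 ratio -0.39, SE 0.0653, adjusted p = 6.43e-05). TLN1, which couples integrins to actin, had 669.8, 527, 603 and 551 CPM in total replicates 1 to 4 and 743, 756 and 714 CPM in cytoplasmic replicates 14 to 16 (log2 ratio -0.33, SE 0.0621, adjusted p = 0.000306). Fractions without overlap were a condition of the choice of these genes, and the gap was widest in PLEC. TUBB4B, a beta tubulin, had 729 ± 30.4 CPM in total and 887 ± 55.1 CPM in cytoplasmic RNA (log2 ratio -0.28, SE 0.05297, adjusted p = 0.000113). Each of these 4 lost its call in some fit that left out 1 library: PLEC without cytoplasmic replicate 15 (adjusted p = 0.00147), and FLNA, TLN1 and TUBB4B without cytoplasmic replicate 14 (adjusted p = 0.00185, 0.00568 and 0.00373). Spectrins, plakins and filamins as a list had 0 and 3 of 21 called and a median log2 ratio of -0.22, which was -0.15 with the GC offset, where PLEC alone of these 4 genes was called.

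Collagens (5.71%) and collagen-modifying and matricellular genes (7.14%) had few calls, beside 8.36% over all genes tested. Integrins and laminins had more (17.9%). Over all genes 4.75% were called toward total and 3.61% toward cytoplasmic RNA. Collagens had 0 and 2 of 35 called, with 4 of 35 ratios above 0 and a median of -0.23. Integrins and laminins had 2 and 3 of 28 (median -0.15), with LAMB2, a laminin beta chain, called in every fit that left out 1 library (144 ± 12.5 CPM in total and 192 ± 19.2 CPM in cytoplasmic RNA, log2 ratio -0.41, SE 0.06703, adjusted p = 0.000125). Among 56 collagen-modifying and matricellular genes, of which 2 and 2 were called, PLOD2, a lysyl hydroxylase, was higher in total RNA (254 ± 16.5 CPM in total and 185 ± 15.1 CPM in cytoplasmic RNA, log2 ratio 0.46, SE 0.0569, adjusted p = 5.24e-07), and LOXL1, a lysyl oxidase (log2 ratio -0.46, SE 0.0706, adjusted p = 6.33e-05), and BMP1, the procollagen C-proteinase (log2 ratio -0.39, SE 0.0655, adjusted p = 2.93e-05), in cytoplasmic RNA. Cadherins and protocadherins had 0 and 3 of 60 called, Notch pathway genes 0 and 2 of 26, and WNT and Hippo genes 3 and 2 of 53. Their shares in either direction, 5, 7.69 and 9.43%, were near or below the 8.36% over all genes. Surface receptors were called in both directions, with ITGAV, ITGA6 and FZD6 toward total RNA. Receptor tyrosine kinases had 0 and 2 of 42 called, with 18 ratios above 0 and a median of -0.07, which was 0.01 with the GC offset. Those called toward cytoplasmic RNA included FGFR4 (log2 ratio -0.52, SE 0.0749, adjusted p = 3.04e-06), NOTCH1 (log2 ratio -0.43, SE 0.0608, adjusted p = 2.13e-06), the Wnt receptor FZD2 (34.03 ± 2.801 CPM in total and 52.8 ± 4.51 CPM in cytoplasmic RNA, log2 ratio -0.63, SE 0.06797, adjusted p = 3.98e-08) and the giant cadherins DCHS1 (log2 ratio -0.45, SE 0.0637, adjusted p = 9.61e-06) and CELSR3 (log2 ratio -0.41, SE 0.0658, adjusted p = 2.27e-05). The median of collagens was -0.13 with the GC offset, and of the genes with values in this paragraph PLOD2 and FZD2 kept the call.

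The cell division genes split, with counts to be read against the 4.75 and 3.61% called over all genes. Of 87 genes of mitosis and the kinetochore 13 were called toward total and 6 toward cytoplasmic RNA (median 0.09), of which 2 and 5 stayed called in all 7 fits that left out 1 library. The GC offset gave 2 and 4 calls and a median of 0.00. SPC25, of the microtubule-binding NDC80 complex (90.6 ± 9.36 CPM in total and 68.4 ± 2.04 CPM in cytoplasmic RNA, log2 ratio 0.41, SE 0.0631, adjusted p = 1.59e-05), and SGO2, which protects centromeric cohesion (log2 ratio 0.37, SE 0.0574, adjusted p = 1.40e-05), were higher in total RNA. CENPM, a centromere protein (33.7 ± 1.68 CPM in total and 49.4 ± 1.96 CPM in cytoplasmic RNA, log2 ratio -0.55, SE 0.0629, adjusted p = 6.71e-08), and NCAPH2, a condensin II subunit (log2 ratio -0.45, SE 0.0671, adjusted p = 1.66e-05), were higher in cytoplasmic RNA. Transcript GC content was 39.9 and 34.4% for the first pair and 59.7 and 62.1% for the second. DNA replication genes divided the same way, RRM2B (log2 ratio 0.37, SE 0.0527, adjusted p = 2.36e-06, 35.1% GC) against the polymerase POLD1 (log2 ratio -0.42, SE 0.0626, adjusted p = 7.69e-06, 64.9% GC), with 4 and 4 of 54 called. Of these 6 genes CENPM alone was called with the GC offset.

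Signalling and metabolic genes gave scattered calls, beside 4.75 and 3.61% over all genes tested. The TGF-beta, BMP and SMAD list had 5 and 0 of 43 (median 0.11), among them the ligand TGFB2 with 353, 336, 309.5 and 348 CPM in total replicates 1 to 4 and 248, 259 and 282 CPM in cytoplasmic replicates 14 to 16 (log2 ratio 0.36, SE 0.0544, adjusted p = 7.21e-06). Its total libraries were all above its cytoplasmic ones. CDC42, a GTPase of cell polarity, was higher in total RNA (269 ± 17.3 CPM in total and 212 ± 11.6 CPM in cytoplasmic RNA, log2 ratio 0.34, SE 0.0541, adjusted p = 1.20e-05), as was ACTR2, which nucleates actin branches (519 ± 31.6 CPM in total and 395 ± 10.4 CPM in cytoplasmic RNA, log2 ratio 0.40, SE 0.0528, adjusted p = 9.73e-07). TPI1, a glycolytic enzyme, was higher in cytoplasmic RNA (335 ± 16.9 CPM in total and 458 ± 18.1 CPM in cytoplasmic RNA, log2 ratio -0.45, SE 0.0514, adjusted p = 6.71e-08), as was CAD, which starts pyrimidine synthesis (129 ± 7.82 CPM in total and 172 ± 6.91 CPM in cytoplasmic RNA, log2 ratio -0.42, SE 0.05296, adjusted p = 4.83e-07). Zinc finger genes had 8 and 12 of 426 called, chromatin regulators 8 and 9 of 105, solute carriers 12 and 6 of 254, and replication-dependent histones 0 and 0 of 15. ACTB, the usual reference gene for cytoskeletal actin, had 7801 ± 429.8 CPM in total and 7505 ± 161 CPM in cytoplasmic RNA and was not called (log2 ratio 0.06, SE 0.0567, adjusted p = 0.499), and GAPDH was not called either (log2 ratio -0.11, SE 0.05698, adjusted p = 0.161).

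**Figure D5:**
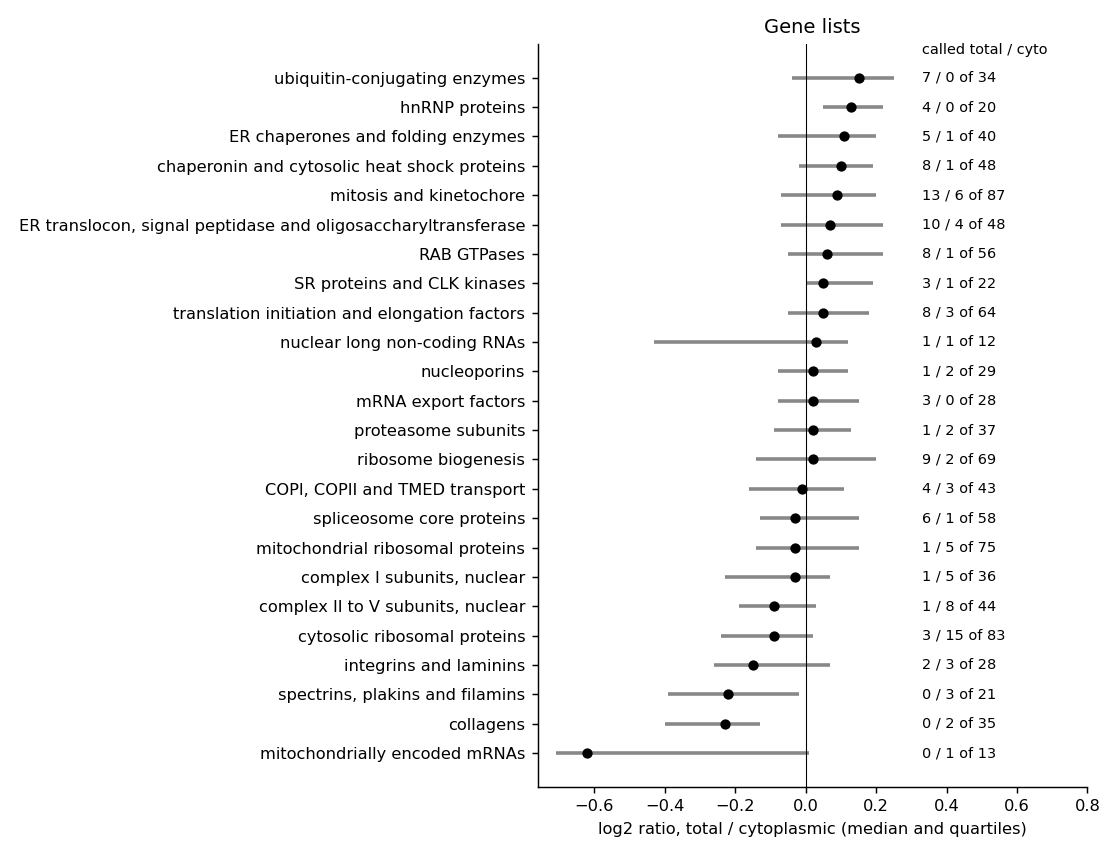
Median log2 ratio (points) with quartiles (bars) of 24 gene lists, and at the right the number of tested members called higher in total and in cytoplasmic RNA of the number tested. Among these 24 of the 76 lists the medians run from -0.62 for mitochondrially encoded messengers to 0.15 for ubiquitin-conjugating enzymes, against 0.00 over all genes tested, drawn as the vertical line. A list not drawn, growth control and cytokine mRNAs, had a higher median (0.18), with 1 and 0 of 19 called.

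A minority of calls went against the GC lean; these genes were picked after their values were seen. Of 1345 protein-coding genes above 62% GC, 9 were higher in total RNA, among them MEX3D, CEBPB, ATP6V0C, SOX18, MIDN, TMEM158, ZNF444 and CAMK2N2. MEX3D, an RNA-binding KH protein with 69.1% GC, had 26.9, 34.8, 32.1 and 32.8 CPM in total replicates 1 to 4 and 19.97, 20.8 and 20.8 CPM in cytoplasmic replicates 14 to 16 (log2 ratio 0.63, SE 0.0779, adjusted p = 3.43e-07). CEBPB, a leucine zipper transcription factor, had 24.8, 27.5, 19.5 and 23.9 CPM in total replicates 1 to 4 and 16.6, 16.3 and 15.2 CPM in cytoplasmic replicates 14 to 16 (log2 ratio 0.57, SE 0.0905, adjusted p = 1.89e-05). ATP6V0C, the ring subunit of the vacuolar proton pump, had 89.9 ± 9.81 CPM in total and 60.5 ± 4.71 CPM in cytoplasmic RNA (log2 ratio 0.57, SE 0.0759, adjusted p = 2.15e-05). SOX18, a transcription factor, had 3.91 ± 0.453 CPM in total and 1.77 ± 0.576 CPM in cytoplasmic RNA (log2 ratio 1.15, SE 0.186, adjusted p = 1.86e-05). These 4 were called in each of the 7 fits that left out 1 library. MIDN, TMEM158, ZNF444 and CAMK2N2 were not, with largest adjusted p values of 0.00578 for ZNF444 without cytoplasmic replicate 16 and of 0.0105, 0.0110 and 0.0226 for MIDN, CAMK2N2 and TMEM158 without cytoplasmic replicate 15. PTMA, the acidic nuclear protein prothymosin alpha, at 60.4% GC had 656, 717, 629 and 706 CPM in total replicates 1 to 4 and 525, 470.5 and 471 CPM in cytoplasmic replicates 14 to 16 (log2 ratio 0.47, SE 0.0552, adjusted p = 1.27e-07), and MSX1, a homeobox factor at 59.9%, had 9.34 ± 1.36 CPM in total and 5.61 ± 0.468 CPM in cytoplasmic RNA (log2 ratio 0.73, SE 0.121, adjusted p = 2.26e-05).

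On the opposite side, 3 of 2183 genes between 38 and 42% GC were higher in cytoplasmic RNA: COX7B, given above, and the ribosomal protein genes RPL31 and RPL34. RPL31 had 70.01, 71.4, 77.5 and 72.4 CPM in total replicates 1 to 4 and 98.5, 98.9 and 90.2 CPM in cytoplasmic replicates 14 to 16 (log2 ratio -0.40, SE 0.0553, adjusted p = 2.00e-06). RPL34 had 60.2 ± 2.39 CPM in total and 73.2 ± 4.13 CPM in cytoplasmic RNA (log2 ratio -0.28, SE 0.0576, adjusted p = 0.000319), and lost the call without cytoplasmic replicate 14 (adjusted p = 0.00644). Between 42 and 46% GC there were 9 of 2130, among them RPL37, RPS13 (136 ± 3.65 CPM in total and 167 ± 4.81 CPM in cytoplasmic RNA, log2 ratio -0.29, SE 0.05003, adjusted p = 3.39e-05) and ATOX1, a copper chaperone (19.4, 17.2, 21.4 and 17.9 CPM in total replicates 1 to 4 and 28.3, 31.5 and 27.2 CPM in cytoplasmic replicates 14 to 16, log2 ratio -0.61, SE 0.0794, adjusted p = 6.52e-07). Coding sequences of these genes are short: all of COX7B, RPL31, RPL34, RPL37, RPS13 and ATOX1 have fewer than 500 coding bases.

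Cytoplasmic replicate 13, which entered none of these fits, mostly lay on the cytoplasmic side. It was below every total library for 853 of the 858 genes higher in total RNA and above every total library for 631 of the 651 higher in cytoplasmic RNA, against 6316 and 6507 of all 18049 genes tested; 9 of the 651 lay below the total mean. It nevertheless differed from the other cytoplasmic libraries, with 21.5% of its reads outside exons against 16.9 to 17.8%, 0.631% of its counts in long non-coding RNA genes against 0.511 to 0.554%, and the highest levels of MALAT1, NEAT1, SRRM2 and PABPC1L given above. With it included, 634 and 478 genes were called, 632 and 453 of them from the lists above.

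The other cell lines of the series, the epidermoid carcinoma line A-431 and the glioblastoma line U-251MG, with 4 total and 4 cytoplasmic libraries each, shared part of these calls. In A-431, 10.2% of 16376 genes tested were called toward total and 9.51% toward cytoplasmic RNA; 439 of the 858 U-2 OS genes (51.2%, and 26.2% of the A-431 list) and 289 of the 651 (44.4% and 18.6%) were called the same way, 0 and 3 the opposite way. In U-251MG, where 5.93 and 6.98% were called, 422 (49.2% and 44.1%) and 362 (55.6% and 32.1%) were called the same way and 0 the opposite way. The difference of the ratio itself was called at an adjusted p under 0.05 for 422 genes (2.12%) of 19948 in A-431 against U-2 OS and 333 (1.67%) in U-251MG against U-2 OS. Of 12 genes checked, the 6 of largest U-2 OS ratio in each direction, LSM6 alone differed: its log2 ratio was 0.08 in A-431 (SE 0.0934), a difference of -0.60 from U-2 OS (adjusted p = 0.0147), and 0.42 in U-251MG (adjusted p of the difference 0.375). MT-ND5 had ratios of 0.16 and -0.34 there, with adjusted p of the difference of 0.209 and 0.459. PABPC1L had -1.81 and -1.67, and MALAT1 -1.42 and -1.36, further from 0 than in U-2 OS, without a called difference (adjusted p 0.0980, 0.163, 0.373 and 0.361).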

How the data were processed

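Poly(A) RNA of U-2 OS cells was sequenced in 4 total and 4 cytoplasmic libraries among the 24 of 3 cell lines. Per the labels, reads were aligned with TopHat 1.1.4 to hg19 (GRCh37) and handled with SAMtools 0.1.8, and the deposited counts per gene were made with HTSeq 0.4.6 from Ensembl annotation without strand. Entries that name no gene were left out of library sizes and tests. Reads not wholly within the exons of a gene or in exons of more than 1 gene made up 18.9 to 23.4% of uniquely aligned reads per U-2 OS library, replicate 13 included. Reads without a unique alignment are not in this share. The deposited RPKM values, which the authors made from the same alignments, served one alternative. The labels and the study's methods name different extraction kits and read types. The methods give the composition of the lysis buffer used for cytoplasmic RNA.

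Counts of total replicates 1 to 4 and cytoplasmic replicates 14 to 16 were tested with the quasi-likelihood test of edgeR 4.0.16 (R 4.3.3) after TMM scaling and filterByExpr, with Benjamini-Hochberg adjustment over 18049 genes and a threshold of 0.001. The standard error is the log2 ratio over the root of F. Values per library were compared by two-sided exact permutation tests. Gene counts were 21805430 or more per library. A gene with few counts is still measured less precisely than a gene with many. The scripts were tested on simulated data.

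Types, lengths, GC content and sequences came from 1 reference transcript per gene of GENCODE v44lift37 on GRCh37, which held 42986 of the 51715 genes. Named genes are, in each direction, the 12 called genes of largest ratio and the 8 of highest count. For both, only genes whose fractions do not overlap and whose mean level is 3 log2 CPM or more were eligible. Up to 2 called members per gene list and direction with the member of highest count, and MALAT1 and NEAT1, were named as well. Protein-coding and long non-coding genes of 76 lists entered. Genes against the GC lean, FZD6, MT-RNR1 and further mitochondrial genes, and GAPDH and ACTB beyond this rule were chosen after their values were seen. Members and lists were chosen with earlier results of these data known, so lists carry no test. Alternatives were other scalings, filters, thresholds, DESeq2 1.42.0, limma 3.58.1, flow cell, replicate numbers, a GC offset and leaving out each library. One gene against the GC lean is not reported here.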

Additional observations from a re-analysis of the deposited data

Results flagged for a closer look

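Among the genes and values per library given above, a few had 1 total library far from the other 3; 7 of the 121 checked did, and chance gives about 1 in 20 for one such check; the checks share the same libraries. Total replicate 3 stood apart for CELSR3 (53.2 CPM), HSPE1 (87.4 CPM), TMEM256 (8.51 CPM) and the share of reads in exons of more than 1 gene (2.09%). Total replicate 1 stood apart for MT-RNR1 (289 CPM), MT-RNR2 (3409 CPM) and TMEM158 (7.95 CPM). In CELSR3, HSPE1 and TMEM256 total replicate 3 was the library nearest to the cytoplasmic ones, as it was for the GC balance.

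The LSM6 ratio differed between cell lines: it was lower by 0.60 on the log2 scale in A-431 than in U-2 OS (difference -0.60, adjusted p = 0.0147 in the model over all groups, with 4 total and 4 cytoplasmic A-431 libraries).

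Cytoplasmic replicate 13, which is outside the comparison, had 21.5% of its reads outside exons and 0.631% of its counts in long non-coding RNA genes, above all 7 other U-2 OS libraries. It also had the highest levels among the U-2 OS libraries of MALAT1 (78.4 CPM), NEAT1 (1143 CPM), SRRM2 (1429 CPM) and PABPC1L (106 CPM), 3 of which were called higher in the other cytoplasmic libraries than in total RNA. The study's methods say that 1 cytoplasmic U-2 OS sample was set aside because its trace looked like total RNA, without a label that names it.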

How the results depend on the processing

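The calls higher in total and in cytoplasmic RNA, 858 and 651, stayed within 1.5 times of these counts with RLE scaling (824 and 680), library size alone (935 and 441), DESeq2 (967 and 756), a mean count of at least 100 (652 and 571) and all 4 deposited cytoplasmic libraries (634 and 478). Without a filter on low counts they were 1018 and 1176. They were 344 and 213 with the GC offset, 100 and 90 in one model over all 6 groups, 25 and 101 in flow cell A alone, 9 and 33 with flow cell as a term, and 17 and 12 when tested against a 1.2-fold change. At adjusted p under 0.05 and 0.01 they were 2748 and 2409, and 1780 and 1495. The deposited RPKM with limma gave 0 and 0, with 3743 genes at an unadjusted p under 0.05 and 87 and 57 at an adjusted p under 0.05. With 1 library left out the counts ranged from 202 to 1358 and from 257 to 1254, lowest without cytoplasmic replicate 15 and highest without total replicate 3; the cause was not tested. With the replicate block 1900 and 1548 genes were called, against 758 and 572 in the same 6 libraries without it. The counts with the block and the GC offset were 895 and 654. The 3 same-numbered pairs of the run table correlated by 0.048 to 0.14 and the other 6 by less than 0. Levels were taken as deviations from the mean of each fraction, so a positive value for 1 pair forces a negative value for another. Each total library correlated best with its own number, a weak hint from the data and not from the design.

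The 4 differences per library at the smallest p cannot reach 0.05 with fewer libraries, and ranged from -2.17 to -1.57 points for the mitochondrial share, from -2.08 to -1.72 points for the 100 most abundant genes, from -328 to -246 for genes with a count and from -0.53 to -0.38 for the GC balance. The share of reads outside exons differed by -0.305 to 0.177 points, turning sign without total replicate 4 (0.00706) and cytoplasmic replicate 15 (0.177), and the share in exons of more than 1 gene by -0.00461 to 0.0123 points, turning sign without total replicate 3 (-0.00461) and cytoplasmic replicate 16 (-0.00380). In the deposited RPKM the ratios of ID4 (-0.07), DNAJB4 (-0.27), PSMC6 (-0.55) and ACTB (-0.04) turned sign, and that of GAPDH was 0.00; GAPDH also turned with the GC offset (0.03) and with the block and GC offset (0.02). No other named gene changed direction under any of these settings.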
